A study of Mus musculus and Homo sapiens
Mus musculus with 12 samples.

Results

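Of 11198 nuclei in 7 single-nucleus libraries of mouse brain, 82 (0.732%) carried transcripts of 4 microglial genes above a set level and stayed under set limits for 3 liver and 3 kidney genes. These nuclei were selected on 3 conditions. The genes Inpp5d, Dock2, Csf1r and Cx3cr1 together had to reach 3 unique fragment identifiers (UFIs, the counting unit of the assay) per 10000 UFIs of the nucleus. The liver genes Alb, Cps1 and Apob together had to stay under 3 UFIs, and the kidney tubule genes Lrp2, Slc34a1 and Slc12a1 under 5 UFIs per 10000. The first condition was met by 102 nuclei, of which 18 were lost to the kidney limit and 2 to the liver limit. The nuclei that met all conditions are called marker-positive nuclei here, because 73 of the 82 (89.0%) also held neuron markers at 50 or more UFIs per 10000, as did 93.7% of the other nuclei, which goes against a plain reading of them as microglia.

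The libraries were made by snHH-seq, in which nuclei are fixed, reverse transcription is primed with random primers on total RNA, and droplets add cell barcodes. All were labelled as brain nuclei, from wild-type C57BL/6J male mice, 6 to 8 weeks old, and the labels do not say whether each library came from its own animal. The tissue was frozen in 4 libraries and fresh in 3. The reverse transcription primer carried an additional cell barcode (with preindex) in 3 libraries and none (without preindex) in 4, which made 2 libraries each of frozen without preindex, frozen with preindex and fresh without preindex, and 1 of fresh with preindex. Title and treatment field contradict each other on the primer in 4 libraries, both of frozen with preindex and both of fresh without preindex. Groups here follow the titles, and barcodes of 40 nt mark the 3 libraries with preindex in their title, against 30 nt in the other 4. The libraries held 8605214 to 42439731 UFIs over 700 to 3100 nuclei.

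Microglia are the resident macrophages of the brain. They depend on the receptor Csf1r for survival, sense nucleotides through P2ry12 and neuronal fractalkine through Cx3cr1, and keep their identity under transforming growth factor beta signalling and the transcription factors Spi1 (PU.1), Runx1 and Sall1. Inpp5d is a lipid phosphatase downstream of immune receptors, and Dock2 is an exchange factor for Rac that drives movement of blood-derived cells.

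Before the values, some libraries need a remark. Nuclei over the kidney limit were 259 and 206 in the libraries of frozen tissue with preindex, 1 in the fresh library with preindex and 0 in the other 4 libraries. Nuclei with at least 3 liver UFIs were 21 in the fresh library with preindex and 1 in replicate 2 of frozen with preindex. The sources used here do not say whether nuclei of other tissue went through these runs, and where these transcripts came from was not tested. Such nuclei count in the denominators of the shares, which are therefore also compared without them. Of the 11198 nuclei, 32 barcode sequences occurred in 2 libraries each, and 3 marker-positive nuclei had such a barcode. The share of nuclei with neuron markers is therefore also given without the preindexed libraries.

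The 82 nuclei came from every library. Replicates 1 and 2 of frozen without preindex gave 5 of 700 and 9 of 800 nuclei, those of frozen with preindex 15 of 2300 and 13 of 1998, those of fresh without preindex 11 of 1000 and 16 of 1300, and the fresh library with preindex 13 of 3100. The 4 rule genes had 1 to 91 UFIs in a marker-positive nucleus, with a median of 15. All 4 genes were seen in 54 nuclei, 3 in 13, 2 in 11 and only 1 in 4. Per 10000 UFIs the level ran from 3.30 to 58.5 with a median of 9.08. Of the 11116 other nuclei, 9933 (89.4%) had no UFI of these genes, 984 had 1, 141 had 2, 32 had 3 and 26 had more.

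Near the threshold the counts were small. The 5 nuclei just inside had 3.30, 3.34, 3.39, 3.54 and 3.60 UFIs per 10000, from 4, 2, 15, 4 and 3 UFIs. The 5 just outside had 2.99, 2.95, 2.94, 2.93 and 2.83 per 10000, from 2, 2, 6, 3 and 2 UFIs. Only 2 members rested on fewer than 3 UFIs, whereas 57 had at least 10.

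Levels below are counts per 1000000 UFIs (CPM), taken from the UFIs summed over the marker-positive nuclei of a library, and means ± SD run over the 7 libraries. They are described and not tested against the other nuclei, because the same nuclei were chosen on their microglial transcripts. Inpp5d stood at 317 ± 92.9 CPM (n = 7), against 2.67 ± 0.462 CPM in the other nuclei. Dock2 stood at 323 ± 86.7 against 2.72 ± 0.893 CPM, Csf1r at 223 ± 79.9 against 1.43 ± 0.679 CPM, and Cx3cr1 at 227 ± 54.8 against 2.05 ± 0.476 CPM. Per kilobase of gene, introns included, Cx3cr1 was the highest of the 4 with 11.6 CPM per kb, followed by Csf1r with 8.73, Inpp5d with 3.16 and the long Dock2 with 0.579 CPM per kb.

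Genes that define microglia and were not part of the rule stood high in the same nuclei. P2ry12 was at 35.7 and 226 CPM in replicates 1 and 2 of frozen without preindex, 104 and 256 CPM in those of frozen with preindex, 159 and 216 CPM in those of fresh without preindex, and 71.4 CPM in the fresh library with preindex. In the other nuclei of these libraries it lay between 0.437 and 1.52 CPM, so the 2 ranges did not overlap. Siglech, a sialic acid binding receptor, reached 210.4 CPM and Tmem119, a microglial membrane protein, 63.4 CPM, but both had 0 UFIs in replicate 1 of frozen without preindex, where only 5 nuclei with 56016 UFIs in all were available and a count of 0 allows up to 53.6 CPM (3 counts).

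A list of 20 microglial identity genes was compared library by library. Of these, 11 were higher in the marker-positive than in the other nuclei in all 7 libraries, the same 11 without any overlap of the ranges. Over all 34486 genes outside the rule with a UFI in any nucleus, 1.21% were higher in all 7 libraries and 0.893% were higher without overlap, and over the 9505 of them with at least 10 UFIs in the marker-positive nuclei 4.4% and 3.24% were. The median ratio was 12.4 over the 20 genes and 0.977 over all 34486. The counts and medians of lists given next cover every gene of a list that is in the files, whatever its level, and stand beside the same 0.893%. These shares describe the selected nuclei and support nothing beyond that. The list summed to 1350.4 ± 444 CPM against 166 ± 47.5 CPM.

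**Figure D1:**
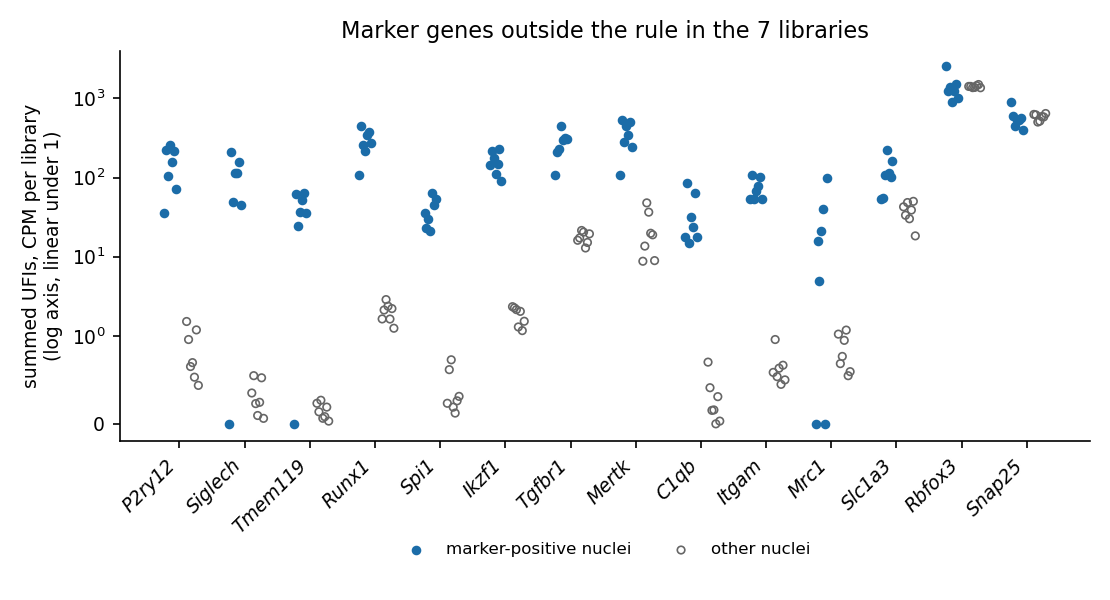
Summed UFIs of 14 genes outside the rule in each of the 7 libraries, in CPM on an axis that is logarithmic above 1 and linear below, with filled points for the marker-positive nuclei and open points for the other nuclei of the same library. The microglial genes from P2ry12 to Itgam stand above the open points except where Siglech and Tmem119 are at 0, whereas Rbfox3 and Snap25 overlap.

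Per nucleus the same markers were seen often, at a median depth of 14676 UFIs in the marker-positive and 12625 UFIs in the other nuclei. P2ry12 had a UFI in 70.7% of marker-positive and 1.01% of other nuclei, Ikzf1 in 74.4% and 1.66%, Siglech in 59.8% and 0.414%, and Tmem119 in 34.1% and 0.189%. After thinning every nucleus to 3000 UFIs, which kept 81 marker-positive and 11114 other nuclei, P2ry12 was seen in 30.9% and 0.225%, Ikzf1 in 38.3% and 0.396%, and Siglech in 30.9% and 0.0630%. Over the 13 microglial markers that were fixed outside the rule and measured, at least 3 UFIs were present in 76 of the 82 nuclei, and 2 marker-positive nuclei had none.

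Of 17 microglial transcription factors, 7 were higher in all 7 libraries and 5 without overlap, with a median ratio of 2.62. Runx1 was at 107 and 444 CPM in the replicates of frozen without preindex, 257 and 219 CPM in those of frozen with preindex, 345 and 380 CPM in those of fresh without preindex, and 277 CPM in the fresh library with preindex, where the other nuclei held 1.25 to 2.87 CPM. Fli1, an ETS factor of blood and endothelial cells, was at 171 ± 47.8 against 4.58 ± 1.97 CPM. Ikzf1 (Ikaros) was at 159.5 ± 53.1 against 1.83 ± 0.484 CPM, and Spi1 at 38.7 ± 15.9 against 0.352 ± 0.229 CPM. Sall1 was at 54.7 ± 29.8 against 3.78 ± 3.05 CPM and overlapped. Mef2c, which neurons share, was the most abundant of the list with 532 ± 211 against 445 ± 64.4 CPM and overlapped as well, while Mef2a was at 384 ± 71.2 against 167 ± 8.46 CPM without overlap.

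Receptors and their signalling adaptors came next. Lyn, a Src family kinase, was at 263 ± 60.2 against 6.15 ± 1.84 CPM, Plcg2, a phospholipase downstream of Trem2, at 84.7 ± 8.89 against 6.24 ± 1.55 CPM, and Vav1, an exchange factor of blood-derived cells, at 84.6 ± 29.5 against 0.502 ± 0.228 CPM. Trem2 itself was low with 30 UFIs in all 82 nuclei (0 to 35.2 CPM by library), and its adaptor Tyrobp had 5 UFIs. Of the 21 genes of Csf1r and Trem2 signalling, 9 were higher without overlap and 1 (Fgr) was at 0. In the transforming growth factor beta axis, where 4 of 13 genes were higher without overlap (median ratio 1.83), the receptors Tgfbr1 (273 ± 106 against 17.5 ± 3.08 CPM) and Tgfbr2 (172 ± 45.3 against 11.6 ± 2.49 CPM) stood out, together with Nrros, which presents the latent ligand on microglia (52.5 ± 22.6 against 4.28 ± 0.933 CPM). Smad4 and Smad2 did not separate fully. Smad4 ran from 70.1 to 196 against 62.3 to 71.8 CPM, a narrow overlap, and Smad2 was at 56.8 ± 26.3 against 42.3 ± 2.69 CPM.

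Of 12 genes of complement and its receptors, 5 were higher without overlap and 2 (C3 and Vsig4) were at 0, with a median ratio of 10.3. Of 18 phagocytosis and lysosome genes 4 were higher without overlap, with a median ratio of 1.45. Itgam, the alpha chain of complement receptor 3, was at 74.1 ± 23.3 against 0.618 ± 0.168 CPM. C1qb, C1qc and C1qa, the chains of the first complement component, were at 36.4 ± 27.4, 23.3 ± 10.9 and 16.6 ± 14.4 CPM, with at most 0.702 CPM of C1qb in the other nuclei of any library. Mertk, a receptor for dying cells that astrocytes also use, was at 352 ± 154 against 22.1 ± 14.8 CPM. The cathepsin gene Ctsb overlapped with 85.8 ± 36.0 against 64.5 ± 17.7 CPM. Among nucleotide sensors, Entpd1 (CD39, which degrades extracellular ATP) was at 180.0 ± 49.6 against 10.1 ± 1.06 CPM and P2rx7 at 61.4 ± 28.2 against 4.85 ± 1.04 CPM. Of 8 purinergic genes in the files, 6 were higher without overlap. Of 19 genes of Rac signalling and motility, 9 were, led by Elmo1, the partner of Dock2, at 1044 ± 251 against 400.5 ± 34.8 CPM, and Srgap2 at 693 ± 133 against 262 ± 18.4 CPM.

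Of 25 early activation genes 9 were at 0, and of 16 disease-associated genes 4. The early activation list summed to 91.5 ± 29.1 against 53.1 ± 9.51 CPM, led by Egr1, and the disease-associated list to 211 ± 46.3 against 133 ± 13.9 CPM, led by Timp2. Il1b, Tnf, Ccl2, Ccl3, Ccl4, Hspa1a and Hspa1b had 0 UFIs among 1368517, as did Cst7, Spp1 and Lgals3, which rise in disease-associated microglia. Il1a had 8 UFIs, and the early response gene Egr1 49 (34.6 ± 23.7 against 20.9 ± 6.31 CPM, with overlap). Apoe was at 34.5 ± 27.3 against 7.72 ± 3.03 CPM, without overlap. The proliferation genes Mki67 and Top2a were also at 0. B2m, the light chain of class I molecules, was at 28.9 ± 15.3 against 4.53 ± 0.483 CPM, and the class II genes Cd74 and H2-Aa had 5 and 8 UFIs.

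The rule aside, the 25 genes with the largest ratio of the marker-positive to the other nuclei were taken among the genes seen in at least 25% of the 82 nuclei (means over libraries with 1 CPM added). Runx1 led with a ratio of 96.5, followed by Ly86, which pairs with the receptor Cd180, at 84.8, P2ry12 at 82.7, Siglech at 77.2 and Hpgds, the hematopoietic prostaglandin D synthase, at 69.6. Next came 8030442B05Rik at 68.2, the sialic acid receptor Cd33 at 60.8, the immune checkpoint gene Vsir at 60.7, the cytokine receptor Csf3r at 57.4, Vav1 at 57.0, Ikzf1 at 56.8, Selplg at 56.0, the transporter Slco2b1 at 55.7 and Cd180 at 52.0. Abi3, Fcrls, Itgam, Laptm5, Pik3ap1, Fyb, A630001G21Rik, Apbb1ip, Myo1f, Stab1 and Lyn had ratios from 47.3 down to 36.9. None of the 10 neuron markers was among them. Of the 25, 24 had ranges that did not overlap, and Siglech was the exception.

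Promoters of the leading genes were read for the letters GAGGAA, the purine-rich core that Spi1 and other ETS factors bind. The window was the 250 bases before the annotated start (RefSeq, GRCm38.p6), on both strands, and no other motif was searched. It was present in 23.3% of all 32851 windows of the table and in 12 of the 26 windows (46.2%) of the leading genes, of which the table holds 21, some with more than 1 window. In the microglial identity list 4 of 19 windows had it (21.1%), and in the neuron marker list 4 of 12 (33.3%). A match describes letters in a window and is not a binding site. The windows of 2 rule genes and of Itgam, which hold the letters, and that of Cx3cr1, which does not, are shown 5′ to 3′ on the strand of the gene, in lower case with matches in capitals (TTCCTC is the match on the other strand). They lie at chr1:87620062-87620311 (plus strand), chr11:34783906-34784155 (minus strand), chr7:128062390-128062639 (plus strand) and chr9:120068297-120068546 (minus strand).
Inpp5d: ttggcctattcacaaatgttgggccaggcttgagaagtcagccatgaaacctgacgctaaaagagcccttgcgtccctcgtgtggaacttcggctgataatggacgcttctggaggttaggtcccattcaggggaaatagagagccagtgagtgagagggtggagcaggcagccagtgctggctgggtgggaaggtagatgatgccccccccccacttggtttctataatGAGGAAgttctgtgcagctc
Dock2: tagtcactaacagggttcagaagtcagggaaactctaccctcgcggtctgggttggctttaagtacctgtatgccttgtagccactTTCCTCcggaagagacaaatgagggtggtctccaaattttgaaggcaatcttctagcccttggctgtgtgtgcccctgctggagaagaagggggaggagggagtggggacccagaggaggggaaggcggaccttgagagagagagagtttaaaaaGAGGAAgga
Itgam: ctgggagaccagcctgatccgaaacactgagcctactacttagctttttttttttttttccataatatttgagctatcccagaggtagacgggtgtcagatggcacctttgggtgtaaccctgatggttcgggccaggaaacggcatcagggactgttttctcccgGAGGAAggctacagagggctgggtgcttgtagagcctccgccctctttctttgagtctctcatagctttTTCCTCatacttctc
Cx3cr1: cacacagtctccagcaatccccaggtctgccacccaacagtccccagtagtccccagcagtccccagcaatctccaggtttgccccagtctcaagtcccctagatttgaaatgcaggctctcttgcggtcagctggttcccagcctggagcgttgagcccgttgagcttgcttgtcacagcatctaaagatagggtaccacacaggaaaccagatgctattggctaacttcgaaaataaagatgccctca

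Neuron transcripts were abundant in the marker-positive nuclei, close to their level in the other nuclei. Rbfox3, which encodes the neuronal nuclear antigen NeuN, was at 2571 and 1231 CPM in the replicates of frozen without preindex, 1396 and 904 CPM in those of frozen with preindex, 1241 and 1509.5 CPM in those of fresh without preindex, and 1027 CPM in the fresh library with preindex. The mean of 1411 ± 551 CPM compares with 1413 ± 48.3 CPM in the other nuclei. Snap25, a synaptic vesicle fusion gene, ran from 402 to 910.5 against 503 to 644 CPM, and Syt1, its calcium sensor partner, was at 2259 ± 384 against 2809.9 ± 137 CPM. Of the 10 neuron markers, Csmd1 alone was lower in all 7 libraries, at 4282 ± 449 against 5355 ± 328 CPM. The 10 genes summed to 23135 ± 1269 CPM in the marker-positive and 26747 ± 1391 CPM in the other nuclei.

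**Figure D2:**
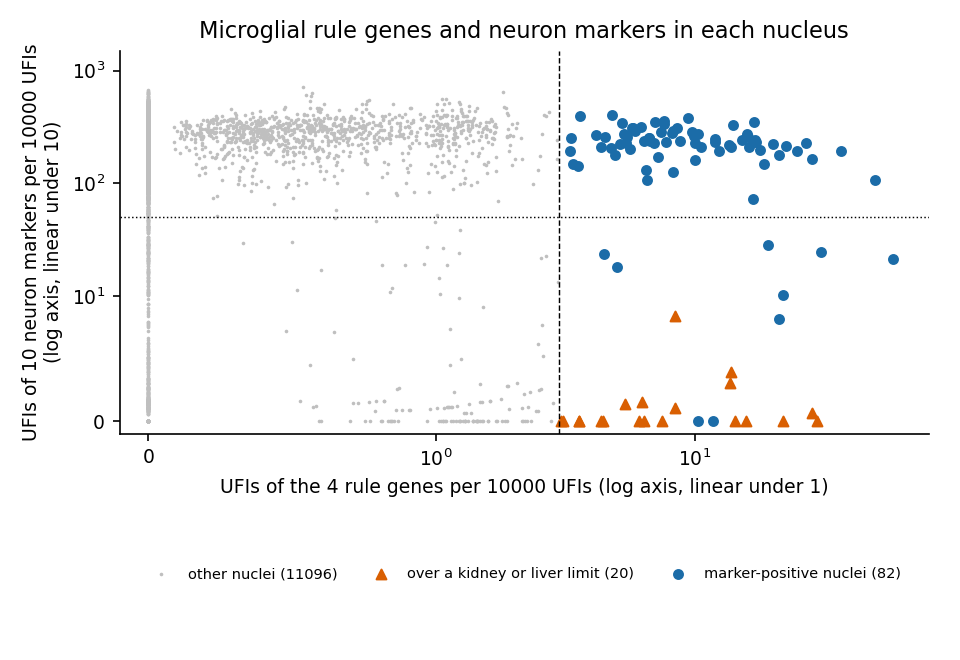
Each point is a nucleus, with the UFIs of the 4 rule genes per 10000 on the x axis and those of the 10 neuron markers per 10000 on the y axis, both logarithmic with a linear stretch near 0. The dashed line marks 3 and the dotted line 50 UFIs per 10000. The grey nuclei exclude those that met the marker minimum. Most of the 82 marker-positive nuclei lie in the band of the grey nuclei, 9 lie under the dotted line, and so do all 20 nuclei lost to the liver or kidney limit.

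Per nucleus, the neuron markers reached a median of 230.2 UFIs per 10000 (quartiles 178 and 271) in the marker-positive nuclei and 279.7 (quartiles 212 and 334) in the others. At or above 50 per 10000 were 73 of 82 (89.0%) and 10411 of 11116 (93.7%). Without the 3 preindexed libraries the counts were 39 of 41 (95.1%) against 98.4%. Of the 705 other nuclei under 50, 463 were over the kidney limit. By library, the medians of the marker-positive nuclei ran from 194 to 263 and those of the others from 251 to 294 UFIs per 10000, the former being lower in each of the 7. In 4 groups of 20 or 21 nuclei, from the lowest to the highest level of the rule genes, the neuron median was 226, 252, 246 and 192 UFIs per 10000, and 2, 0, 2 and 5 nuclei were under 50. As the rule used that level, this is a description only.

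The same measure was low in nuclei rich in markers of other non-neuronal classes, which were chosen for comparison after values were seen and are described without a test. The 82 nuclei with the highest astrocyte markers had a neuron median of 32.6 UFIs per 10000, those with the highest oligodendrocyte markers 4.28, and those with the highest endothelial and pericyte markers 4.21. Under 50 per 10000 were 55, 79 and 72 of them, compared with 9 of the 82 marker-positive nuclei. The lists differ in how abundant their genes are, so the cut-offs that 82 nuclei imply, 178, 205 and 47.1 UFIs per 10000, are far above the 3 per 10000 used for the microglial genes. The sets are therefore not matched to the marker-positive nuclei.

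**Figure D3:**
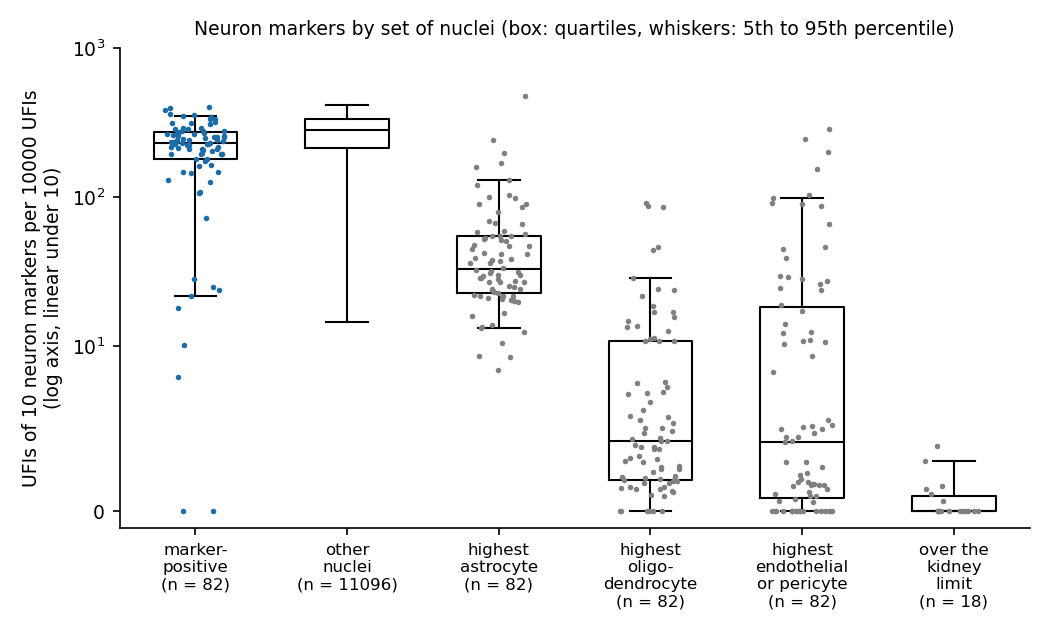
UFIs of the 10 neuron markers per 10000 UFIs of a nucleus, on an axis that is logarithmic above 10 and linear below, by set of nuclei. Boxes give the quartiles and whiskers the 5th and 95th percentiles, and points are single nuclei in sets of 82 or fewer. The marker-positive nuclei (median 230.2) sit beside the other nuclei and above the sets rich in astrocyte (32.6), oligodendrocyte (4.28) or vascular markers (4.21) and the 18 nuclei over the kidney limit (0).

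Genes of neuron types, a list added after the data were seen, were present as well. Among the 73 nuclei at or above 50, Slc17a7, the vesicular transporter of cortical glutamate neurons, had at least 2 UFIs without Gad1 and Gad2 reaching 2 in 26 (35.6%), and Gad1 and Gad2, which make GABA, did so without Slc17a7 in 19 (26.0%). Both were present in 4 nuclei (5.48%) and neither in 24 (32.9%). In the 10411 other nuclei of that kind the shares were 31.8%, 31.3%, 3.41% and 33.6%. Cux2 (upper cortical layers) was at 184 ± 92.0 against 221 ± 20.6 CPM, Rgs9 (striatum) at 162 ± 168 against 168 ± 34.3 CPM, and Fat2 (cerebellar granule neurons) at 60.6 ± 82.2 against 35.5 ± 38.3 CPM.

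Marker-positive nuclei did not hold more UFIs than their neighbours. Their median was lower than that of the other nuclei in 6 of 7 libraries, for example 22974 against 27546 in replicate 2 of fresh without preindex and 6138 against 9013 in the fresh library with preindex, and slightly higher in replicate 1 of frozen with preindex (10073 against 9927). At 3000 UFIs the marker-positive nuclei had a median of 1556 detected genes, against 1453 in the others, and the median was higher in each of the 7 libraries. No doublet caller was run here. For tissue samples the study's methods name a manual limit on UFIs and genes against doublets, and whether the deposited nuclei had passed it is not stated. The source of the neuron transcripts was not tested.

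The 9 nuclei under 50 neuron UFIs per 10000 were few and mixed. They came from replicate 1 of frozen with preindex (3), the fresh library with preindex (3), and replicate 2 of frozen with preindex, replicate 2 of frozen without preindex and replicate 1 of fresh without preindex (1 each). Their rule gene level had a median of 19.2 UFIs per 10000, against 8.24 in the other 73. In their 68303 summed UFIs, Runx1 was at 732 CPM, P2ry12 at 278 and Rbfox3 at 58.6 CPM, compared with 298, 171 and 1404 CPM in the 73. Several of them were rich in another class. Astrocyte markers reached 334, 302 and 140 UFIs per 10000 in 3 nuclei, oligodendrocyte markers 200 and, in the nucleus with 140, 92.5, endothelial and pericyte markers 35.2 and 28.2 in 2, and markers of border-associated macrophages 53.5 in 1. Kidney tubule markers outside the rule reached 21.95 and 7.43 UFIs per 10000 in 2 of the nuclei from replicate 1 of frozen with preindex, the library with 259 nuclei over the kidney limit, and 18.5 in 1 from the fresh library with preindex, which also carried the border-associated macrophage markers. Their part in the values of these nuclei was not tested. The nucleus with 28.2 had 3 UFIs of the rule genes and none of the 13 identity markers. The nucleus with the highest rule level of all, 58.5 per 10000 from 60 UFIs, had 21.5 neuron, 29.3 astrocyte and 12.7 oligodendrocyte UFIs per 10000.

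Markers of other cells were followed over all 82 nuclei. Astrocyte markers summed to 1797 ± 846 against 1415 ± 211 CPM, with Slc1a2 as their most abundant gene and Slc1a3, a glutamate transporter, alone without overlap at 117 ± 60.2 against 37.4 ± 11.1 CPM. Oligodendrocyte markers summed to 500.4 ± 575 against 464 ± 94.2 CPM. Markers of oligodendrocyte precursors summed to 429 ± 229.7 against 537 ± 39.0 CPM, and those of endothelium and pericytes to 66.3 ± 70.6 against 91.0 ± 52.2 CPM, with Flt1 leading and Cldn5 and Abcb1a at 0. Of the monocyte and neutrophil list, 8 of the 10 genes in the files were at 0 (Ly6c2, S100a8 and S100a9 among them), and Vcan led the rest. In the lymphocyte list, Cd79a, Cd79b and Ms4a1 were at 0 and Cd3e had 1 UFI, while Bank1, an adaptor of B cells, was at 86.3 ± 25.7 against 2.30 ± 0.433 CPM. Of the Kupffer cell list, 6 of 8 genes were at 0 (Clec4f, Timd4, Vsig4, Cd5l, Marco and Clec1b), and the iron exporter Slc40a1 had 20 UFIs. Of 11 hepatocyte genes outside the rule 10 were at 0, and 4 of 10 kidney genes outside the rule were, with Slc13a3 leading the rest (list sum 39.1 ± 40.9 against 217 ± 343 CPM). Among border-associated macrophage genes, Mrc1 and F13a1 had 28 and 22 UFIs in 9 and 8 nuclei, whereas Stab1 had 69 UFIs in 34. The list summed to 130.1 ± 152 CPM against 12.5 ± 1.61 CPM in the other nuclei and was higher in each of the 7 libraries, from 17.9 against 10.3 CPM in replicate 1 of frozen without preindex to 464 against 13.4 CPM in the fresh library with preindex. Of its 9 genes in the files, 1 (Stab1) was higher without overlap.

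The nuclei lost to the kidney limit differed from those kept in their other transcripts as well. The 18 nuclei, all from frozen tissue with preindex, carried 111 UFIs of Dock2, 31 of Inpp5d and 22 of Csf1r, 1 of Cx3cr1, 0 of P2ry12, 3 of Siglech and 0 of Tmem119 among 165722 UFIs, with 15 of Mrc1 and 9 of F13a1. In the 82 nuclei the same genes had 465, 463, 338, 313, 241, 160, 64, 28 and 22 UFIs among 1368517. The 13 identity markers had 87 UFIs in the 18 and 1633 in the 82 nuclei. The neuron median of the 18 was 0. The 2 nuclei lost to the liver limit, both in the fresh library with preindex, held 2 UFIs each of Clec4f, Vsig4 and Cd5l and 1 of P2ry12.

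The study varied storage and primer to compare the performance of the method, and both factors were tested within the marker-positive nuclei on the UFIs summed per library. Their share was 0.786 ± 0.228% of nuclei in the 4 frozen and 0.917 ± 0.436% in the 3 fresh libraries, a difference of -0.131 percentage points (two-sided exact permutation test over 35 arrangements, p = 0.629, the smallest p it can give being 0.0286). With preindex it was 0.574 ± 0.134% (n = 3) and without 1.04 ± 0.226% (n = 4), a difference of -0.468 percentage points that did not pass the same exact permutation test (p = 0.0571). The ranges of 0.419 to 0.652% and 0.714 to 1.23% did not overlap. As the 3 libraries with preindex held the 3 lowest shares, no arrangement of these values in that direction gives a smaller p. The test could therefore not pass in that direction and does not decide the question. Within the 4 libraries without preindex the shares were 0.714 and 1.12% in frozen and 1.10 and 1.23% in fresh tissue. Where the liver and kidney limits were left out, the primer difference shrank to -0.171 percentage points (exact permutation p = 0.514). The storage difference then turned positive (0.0545 percentage points, exact permutation p = 0.743). With the nuclei over either limit taken out of the denominators instead, the primer difference was -0.415 percentage points (exact permutation p = 0.114). The storage difference was -0.0928 percentage points there (exact permutation p = 0.714). Leaving out replicate 2 of fresh without preindex gave a storage difference of 0.0259 percentage points. The p-values of these 4 tests on shares and depth are unadjusted, and none passed.

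**Figure D4:**
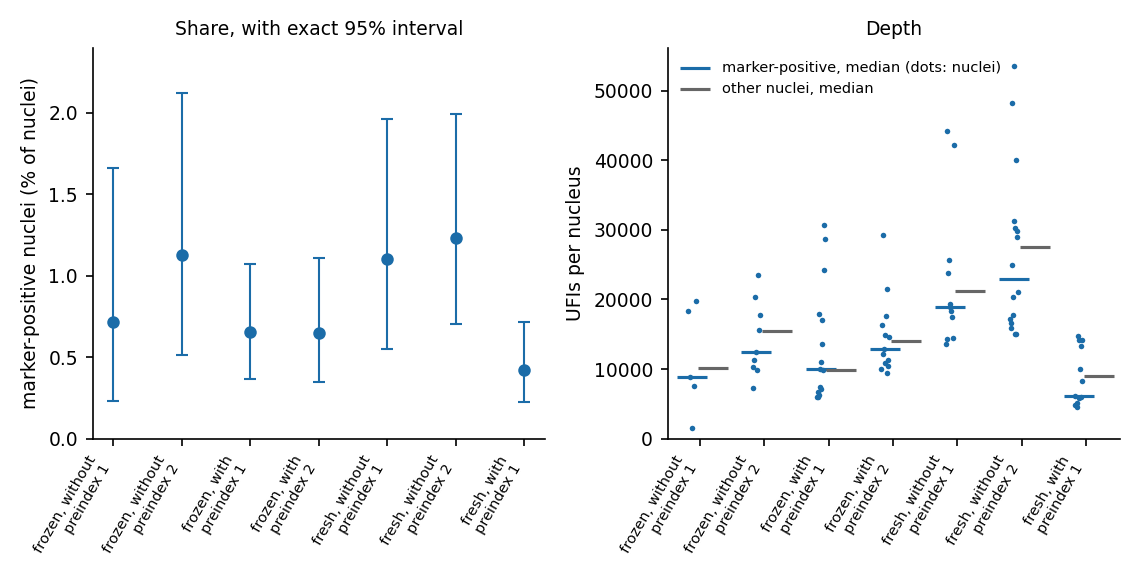
Left, the percentage of nuclei that were marker-positive in each library, with the exact (Clopper-Pearson) 95% binomial interval. Right, UFIs per marker-positive nucleus (dots), with the library's medians for marker-positive (blue line) and other nuclei (grey line). The shares run from 0.419% to 1.23%, with wide intervals.

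The exact (Clopper-Pearson) 95% intervals of the shares ran from 0.232 to 1.66% in the smallest library and from 0.223 to 0.716% in the largest, and cover counting error only. The depth of the marker-positive nuclei, a median of 11074 ± 1926 UFIs in frozen and 16001 ± 8782 in fresh libraries, differed by -4928 UFIs (exact permutation p = 0.314). With and without preindex the values were 9707 ± 3400 and 15795 ± 6334 UFIs (difference -6088, exact permutation p = 0.257).

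For gene levels, edgeR's quasi-likelihood test with Benjamini-Hochberg adjustment was fitted to the 7 sums with storage and primer as terms. For storage, 0 of 4274 genes (0%) passed, 165 had an unadjusted p under 0.05, and DESeq2 also called 0. The 5 genes with the lowest p did not pass. They were Adamtsl1 (log2 fold change, frozen over fresh, -3.01), St18 (-3.65), Cdc14a (2.88), Gm15155 (2.00) and Pnpla8 (-1.47), with adjusted p of 0.498 and above. With no filter on low counts 18 genes passed, and without the liver and kidney limits 4. Over the alternatives Adamtsl1 passed in 2, St18, Cdc14a and Gm15155 in 1 each and Pnpla8 in none. The log2 fold change of St18 ran from -4.65 to -1.41 with a library left out and from -4.00 to -1.11 otherwise. Among microglial genes in the main fit, P2ry12 had a log2 fold change of 0.27, Runx1 of -0.21 and Mertk of 0.07. The 13 identity genes tested had a median of 0.10, the 10 genes of the transforming growth factor beta axis of 0.36 and 3 complement genes of 0.41, and all genes of 0.00, with a median size of change of 0.29.

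For primer, 1 of 4274 genes (0.0234%) passed. DESeq2 called 4. With no filter on low counts 36 passed, and without the liver and kidney limits 108. Bmp6, a secreted signalling factor, was at 0 in both replicates of frozen without preindex, 158 and 57.5 CPM in those of frozen with preindex, 3.97 and 7.04 CPM in those of fresh without preindex and 277 CPM in the fresh library with preindex (log2 fold change 5.62, edgeR adjusted p = 0.00544). The libraries with preindex were all higher. The call rested on few nuclei, because 78 UFIs came from 14 nuclei and 1 nucleus under 50 neuron UFIs per 10000 held 31 of them. Without the fresh library with preindex no gene passed, and Bmp6 had a log2 fold change of 7.56 with an edgeR adjusted p of 0.253. No gene passed either without the nuclei under 50 or without replicate 1 of frozen with preindex, where Bmp6 gave no value because it was not among the genes tested, and 2 passed without replicate 2 of frozen with preindex or replicate 1 of fresh without preindex. The next 4 genes by p did not pass (edgeR adjusted p = 0.278 each). They were Rn7sk, the 7SK RNA (-1.48), Gm15564 (-2.17), Gpc6 (1.69) and Gm2694 (-4.56). Each of these 4 passed in 2 alternatives of tool, scaling, filter, block or rule, and in no run that left out a library. P2ry12 was at -0.28 and Tgfbr1 at 0.60 without passing, and the 13 identity genes tested had a median of -0.49, with -0.00396 over all genes.

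Whether these differences were particular to the marker-positive nuclei was tested as an interaction against the other nuclei of the same libraries. The other nuclei include those over the liver or kidney limit, 259 and 206 for kidney in the replicates of frozen with preindex. With edgeR, 25 of 12004 genes (0.208%) passed for storage, 8 higher and 17 lower, and 25 (0.208%) for primer, 12 higher and 13 lower. DESeq2 called 0 for storage, with 302 genes at an unadjusted p under 0.05, and 5 for primer. The genes named here had at least 50 CPM and separate ranges in the marker-positive nuclei. For storage they were St18 (log2 difference -4.28, edgeR adjusted p = 1.79e-08) and Adamtsl1 (-3.06, adjusted p = 0.00219), both relatively lower in frozen tissue, and Gm15155 (1.94, adjusted p = 0.0141) and Foxp2 (1.80, adjusted p = 0.0430), relatively higher. For primer they were Bmp6 (5.35, edgeR adjusted p = 5.51e-08), Ldb2 (1.59, adjusted p = 0.0424) and Gpc6 (1.50, adjusted p = 0.0471). St18, a transcription factor of oligodendrocytes, was at 17.9 and 23.4 CPM in the replicates of frozen without preindex, 0 and 15.7 CPM in those of frozen with preindex, 63.4 and 58.7 CPM in those of fresh without preindex and 304 CPM in the fresh library with preindex. Of its 82 UFIs, 17 came from 1 nucleus of that last library, under 50 neuron UFIs per 10000. For Adamtsl1, 1 nucleus held 30 of 99 UFIs. For Gm15155, Foxp2, Ldb2 and Gpc6, the leading nucleus held 19.3%, 13.3%, 8.16% and 13.6% of the UFIs. The calls depended on single libraries, on the tool and on other settings. Foxp2 lost the call in 4 of 7 alternatives of tool, scaling, filter and rule (log2 differences of 1.40 to 1.97). Gm15155 lost it in 3 of these 7 (1.76 to 2.02). None of the 4 storage genes passed with DESeq2. For primer, Bmp6 did (DESeq2 adjusted p = 0.000660), Gpc6 did (1.51, DESeq2 adjusted p = 0.0432) and Ldb2 did not (1.77, DESeq2 adjusted p = 0.9999). With edgeR, Ldb2 and Gpc6 both lost the call with no filter on low counts (adjusted p = 0.0982 each) and without the liver and kidney limits (1.34 and 1.08, adjusted p = 0.106 and 0.211), and Gpc6 also at a minimum of 5 rule UFIs per 10000 (1.16, adjusted p = 0.450). Without the fresh library with preindex, St18 was at -1.72 (edgeR adjusted p = 0.936) and Bmp6 at 11.97, larger than with it, without passing (edgeR adjusted p = 0.125). Of the 7 runs that left out 1 library each, Gpc6 lost the call in 6 (log2 differences of 1.19 to 2.04), Ldb2 in 5 (1.16 to 2.02), Foxp2 in 4 (0.83 to 2.47), Gm15155 in 4 (1.55 to 2.71) and Adamtsl1 in 1 (-3.61 to -2.65). No gene of the microglial identity list passed in either interaction, of 14 tested, with medians of -0.37 for storage and 0.01 for primer. The median over all genes was -0.11 and -0.04, so the storage differences are to be read against a shift of -0.11. For primer, 7 endothelial and pericyte genes had a median of 1.72 and 2 border-associated macrophage genes one of 1.91. Within the marker-positive nuclei only 0 and 1 genes of these lists had the counts to be tested. Over the whole lists, 2 nuclei held 40 of 44 endothelial and pericyte UFIs in replicate 1 of frozen with preindex. In the fresh library with preindex, 2 nuclei held 42 of 52 border-associated macrophage UFIs. The median of 3 kidney genes outside the rule was -4.53. That list summed to 762 and 673 CPM in the other nuclei of frozen with preindex. The rule took nuclei over the kidney limit out of the marker-positive set only, so this median is tied to the selection. No gene of the endothelial and pericyte, border-associated macrophage or kidney lists passed. In the oligodendrocyte list 3 of 9 were relatively lower in frozen tissue and 1 relatively higher with preindex, and the summed oligodendrocyte markers of the marker-positive nuclei were at 1580 CPM in the fresh library with preindex, 607 and 195 CPM in the replicates of fresh without preindex and 52.3 to 904 CPM in the frozen libraries, so that 1 fresh library lay above the frozen range. In that library 2 nuclei held 168 of the 177 UFIs, and in replicate 1 of fresh without preindex a single nucleus held 115 of 153. Their part in these calls was not tested. Without the fresh library with preindex, 7 genes passed for storage and 74 for primer. Without replicate 2 of frozen without preindex 44 passed for storage, without replicates 1 or 2 of frozen with preindex 15 and 11, and without replicate 1 of fresh without preindex 15. For primer, 15 passed without replicate 1 of frozen with preindex and 14 without replicate 2 of fresh without preindex.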

How the data were processed

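Single-nucleus total RNA libraries of mouse brain were used, and the species-mixing libraries of the series were not. Per the submitters' processing notes the tools were Cutadapt, UMI-tools, STAR, featureCounts and Scanpy and the mouse builds GRCm38 and mm10. For tissue samples, described on a human genome, the authors state trimming, a manual minimum of reads per barcode, unique alignments, assignment to whole genes, counting of UFIs and a manual limit on UFIs and genes against poor nuclei and doublets. Whether each step was applied to these brain files, and the versions used for them, are not given in the sources used here. The deposited values are raw counts of UFIs per gene and nucleus, 8605214 to 42439731 per library. Counts over whole genes would include introns, and reads shared with overlapping or near-identical genes cannot be told apart.

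Nuclei were chosen by the rule in the text. The members, gene lists and comparison sets were chosen with earlier results of these data known. UFIs were summed per library for marker-positive and other nuclei. Genes passing edgeR's filterByExpr were tested with edgeR 4.0.16 (TMM scaling, quasi-likelihood, adjusted p under 0.05) in R 4.3.3, and DESeq2 1.42.0 was the alternative. The rule genes stayed in the fits and out of the counts. Interactions used a library block. As separate animals are not stated, p-values measure the spread between libraries, which may be technical. Shares and depths were compared by exact permutation tests. Genes named in a comparison were up to 8 in each direction with the largest change among those past the threshold, with at least 50 CPM and no overlap, or the 5 lowest p where fewer than 5 passed. Other list genes were named by abundance or, after values were seen, for their known role. Detection was also given after thinning to 3000 UFIs. Gene lengths and promoters came from RefSeq (GRCm38.p6). On simulated counts with 200 changed genes for the storage comparison, 68.5% of 4-fold and 1% of 2-fold changes were recovered among 4011 and 3975 genes. The changed genes were drawn only among those with a mean of at least 5 counts per library sum. Recovery of genes with fewer counts was not measured. Alternatives were scaling, filters, stricter and looser rules, a replicate block and leaving out each library. Some list genes were not analysed or are not reported here.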

Additional observations from a re-analysis of the deposited data

Results flagged for a closer look

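Of 88 groups of 4 or 7 libraries examined for a value far from the others, 6 were picked out. The rule is meant to pick out about 1 in 20 groups by chance, a rate that was not measured on these data. The share of marker-positive nuclei was 1.12% in replicate 2 of frozen without preindex, far from the other frozen libraries, of which the next had 0.714%. In replicate 1 of frozen without preindex, with only 5 such nuclei, the genes of the transforming growth factor beta axis summed to 875 CPM, and the next frozen library had 1202 CPM. Border-associated macrophage markers summed to 464 CPM in the fresh library with preindex, and the next of the 7 had 125 CPM. There, 2 of the 13 nuclei held 42 of the 52 UFIs. Oligodendrocyte markers summed to 904 CPM in replicate 2 of frozen without preindex, and the next frozen library had 93.8 CPM. A single nucleus, with 4.93 UFIs of the rule genes per 10000, held 84 of the 116 UFIs. Endothelial and pericyte markers summed to 217 CPM in replicate 1 of frozen with preindex, and the next of the 7 libraries had 80.3 CPM. There, 2 nuclei held 40 of the 44 UFIs. Hepatocyte genes outside the rule summed to 8.93 CPM in the fresh library with preindex and were at 0 in the other 6, and the value is 1 UFI.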

How the results depend on the processing

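The share difference between frozen and fresh libraries turned positive without the liver and kidney limits (0.0545 percentage points), was -0.484 after thinning to 3000 UFIs and ranged from -0.380 to 0.0259 when each library was left out. The primer difference of the shares and both depth differences kept their direction in every alternative run, and none passed the exact permutation test. With a library left out the smallest p that test allows is 0.0667 or 0.1, so none could pass, and the primer share difference was at that minimum in 6 of 7 such runs. Those runs moved the storage depth difference to between -9860 and -1442 UFIs, the primer depth difference to between -8397 and -3695 UFIs and the primer share difference to between -0.578 and -0.391 percentage points, and the last was -1.22 after thinning and -0.171 without the liver and kidney limits. Genes called for storage and primer were 18 and 36 with no filter on low counts and 4 and 108 without the liver and kidney limits. DESeq2 called 4 for primer, and 0 passed without the nuclei low in neuron markers, an alternative chosen after seeing the data, as were leaving out the preindexed libraries, counting shares only among nuclei under the liver and kidney limits, and the share of nuclei with neuron markers itself. Leaving out each library gave 0 for storage and 0 to 2 for primer. For the interactions, DESeq2 gave 0 (storage) and 5 (primer), no filter 14 and 16, and no liver or kidney limit 56 for primer. Leaving out each library gave 7 to 44 for storage and 14 to 74 for primer. The percentage of nuclei at or above 50 neuron UFIs per 10000 was 71.6 with the liver and kidney limits left out, and 86.4 to 91.3 with each library left out. The identity list fell to 514 CPM when the rule was applied after thinning to 3000 UFIs, where 1 UFI suffices and 290 nuclei pass. Apart from these constructions, the causes were not tested. With the replicate number as a block, 0 genes passed for storage and 1 for primer, the same counts as without it. Same-numbered libraries of different groups deviated from their group means with correlations of 0.0193, 0.0641 and 0.093. Whether libraries of the same number shared an animal was not tested. Depth limits the smaller libraries, and the test recovered 1% of 2-fold changes in simulated counts, among genes above a minimum mean count.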
